A study of Mus musculus with 8 samples.

Results

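The genes described here build and move motile cilia. They were the rows of the deposited count tables whose gene symbol is on a list of 34 motile cilium and axoneme genes, out of 55213 symbols in all, and all 34 were found. Each of the 8 libraries held RNA of a whole retina from a different male germ-free (GF) C57B1/6 mouse, which means one reared free of microbes. Normal diet (ND) was fed to 4 of them and a high-fat diet (HFD) with 23% saturated fat to the other 4, for 8 weeks from 7 to 15 weeks of age. Mice are named by the numbers in their labels, 9, 10, 11 and 12 for GF-ND and 13, 15, 16 and 19 for GF-HFD. Transcripts of all retinal cells were measured together, so fewer cells of a type and less RNA per cell cannot be told apart.

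A motile cilium beats because dynein motors, fixed in outer and inner arms along its doublet microtubules, slide neighbouring doublets past each other. Radial spokes and a central pair of microtubules time that sliding, and ruler proteins set the repeat at which arms and spokes attach. Cells that carry many cilia, such as those of the airway and of the brain's ependyma, switch the program on through Mcidas and Foxj1 and multiply their centrioles on deuterosomes, of which Deup1 is a core protein. The outer segment of rods and cones is a modified cilium of the non-motile kind, without dynein arms or a central pair.

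The libraries held 39258006 to 44357518 counts. Rod markers stood at a summed 35670 to 78590 CPM (counts divided by library size, with trimmed-mean or TMM factors), so the tissue label was met. Of 12 markers of multiciliated epithelium, 3 (Tmem212, Sntn and Fam216b) had 0 counts in every library, 6 had enough counts to be tested, and the summed level of the list, 46.8 to 97.9 CPM in GF-ND and 52.8 to 65.2 CPM in GF-HFD retinas, was mostly Tppp3, which other cells also express. Of 8 markers of spermatogenic cells, which build a flagellum from the same parts, Odf1 was at 0 throughout and the list summed to 1.88 to 2.30 CPM in GF-ND and 1.5 to 2.11 CPM in GF-HFD retinas. Lens transcripts (12 markers) made up 6.01% of the counts in mouse 11 (GF-ND) and 1.05% in mouse 19 (GF-HFD) (95% Wilson intervals 6.01 to 6.02% and 1.05 to 1.05%, for counting error only) and 0.0163 to 0.148% in the other 6 libraries. Markers of fibroblasts and sclera were highest in GF-HFD mice 16 and 19, with 196 and 264 summed CPM.

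Per length of exon, most of the motile cilium genes were weakly expressed in these retinas. Of the 34, 16 had a mean under 1 CPM, 12 had under 30 counts in every library, and 6 had 0 counts in at least 1 library. Of all 26900 genes tested, 11620, 9197 and 6123 did so. The members were thus near the share of all genes by these counts. None of the 34 was at 0 in all 8 libraries. Rfx3, Dnah7b, Dnah9 and Ccdc39, 4 genes, held 82.2% of all the counts given to the members. Per length of exon (RPKM, CPM per kilobase of all annotated exons of a gene), the order of mean levels was Rfx3 at 5.78, Dnah7b at 3.13, Ccdc39 at 2.92, Dnah9 at 1.96 and Foxj1 at 1.82, and every other member was under 1. The ranges over the libraries overlapped between Dnah7b (2.20 to 4.19 RPKM) and Ccdc39 (1.85 to 4.72 RPKM), and between Dnah9 (1.1 to 2.4 RPKM) and Foxj1 (1.53 to 2.07 RPKM). The median over all 26296 tested genes with a known length was 1.13 RPKM, so Rfx3 to Foxj1 lay above it and the other members below.

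**Figure D1:**
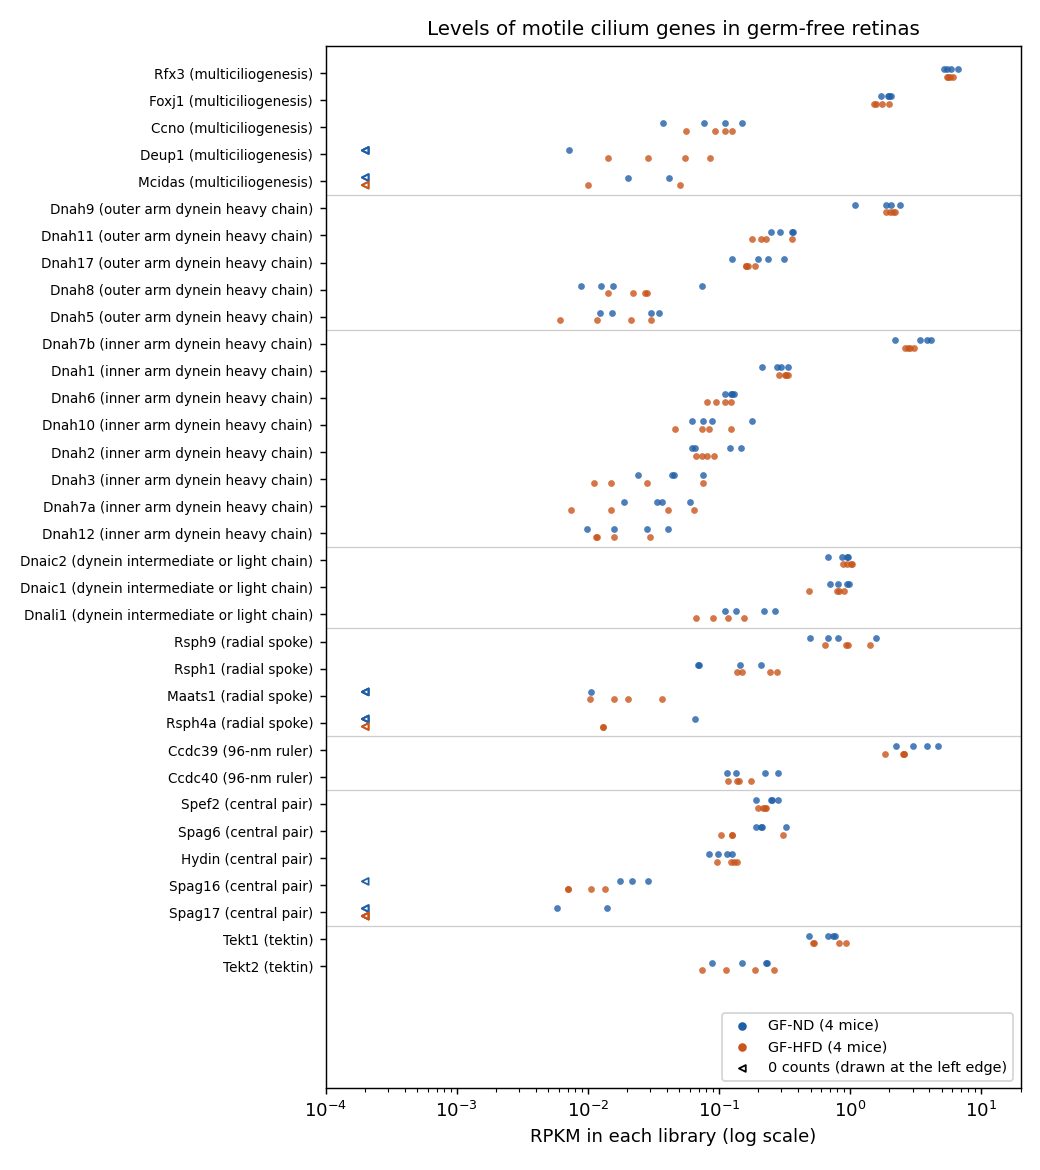
RPKM (x axis, log scale) of each of the 34 genes (y axis, by role) in each of the 4 GF-ND and 4 GF-HFD libraries, with libraries of 0 counts drawn as triangles at the left edge. Rfx3 lies highest with a mean of 5.78 RPKM, and Spag17, Rsph4a and Maats1 lie lowest.

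Of the 34 members, 33 had at least 10 counts over the 8 libraries and were tested for diet with the quasi-likelihood test of edgeR. Spag17 had 7 counts and was not tested. None of the 33 passed at an adjusted p under 0.05 over all 26900 genes tested, where 0% of all genes passed. DESeq2 and limma-voom also called 0 of the 33, and over all genes they called 46 and 0. DESeq2 gave no adjusted p for Deup1, Maats1, Rsph1, Rsph4a, Spag16 and Mcidas. At an unadjusted p under 0.05, Deup1 and Maats1 were higher in GF-HFD retinas (6.06% of the 33, against 2.85% of all genes) and Ccdc39 was lower (3.03%, against 4.53% of all genes). In either direction these are 3 of 33, or 9.09%, against 7.38% of all genes. The study itself picked Deup1 and Maats1 on these same libraries, so their count is not independent of that choice. The fitted fold change was above 0 in 10 members and below 0 in 23, with a median of -0.22 on the log2 scale (GF-HFD over GF-ND), while over all genes tested it was above 0 in 12454, below 0 in 14446 and had a median of -0.03.

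**Figure D2:**
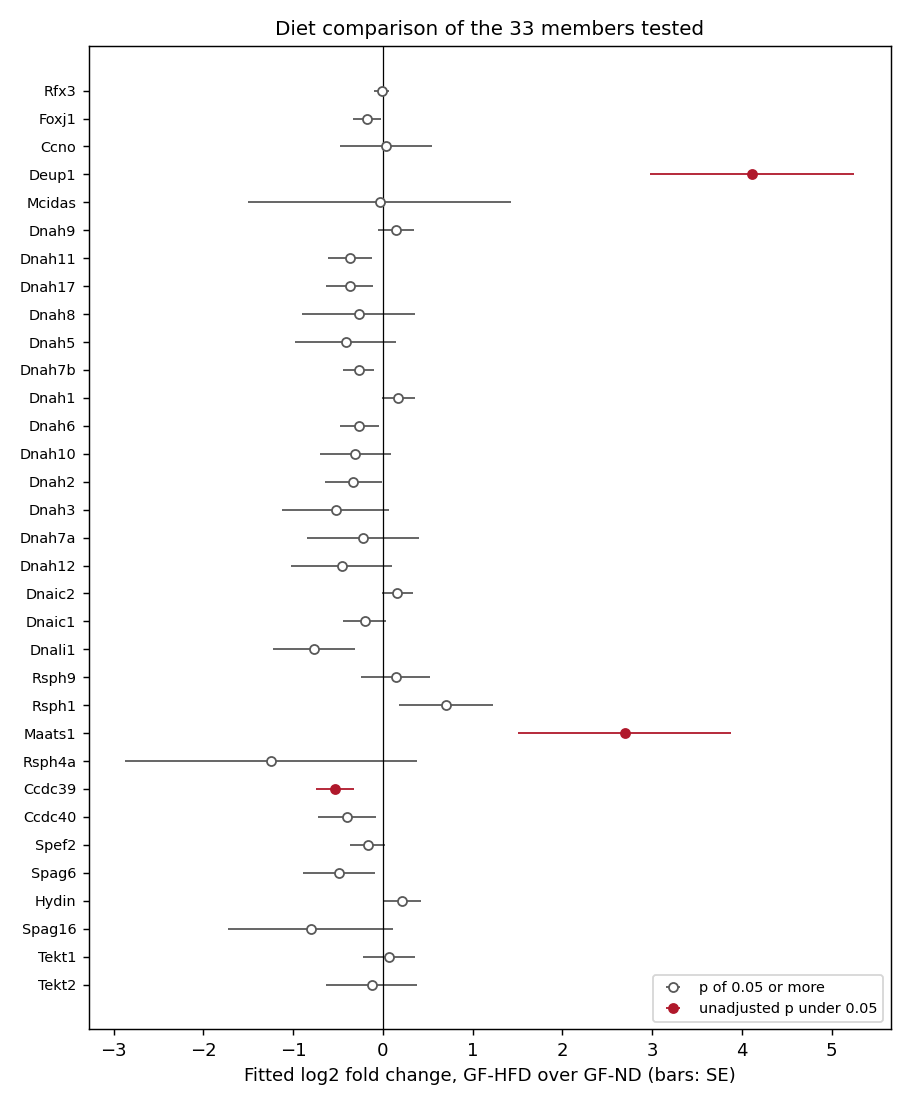
Fitted diet effect on the log2 scale (x axis, above 0 where GF-HFD is higher, bars show the SE) for the 33 members tested (y axis). Deup1, Maats1 and Ccdc39 (filled) had an unadjusted p under 0.05, and 0 of 33 passed after adjustment over all genes.

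Deup1, which builds the deuterosome, was the member with the smallest p. It lies on chromosome 9 from 15559864 to 15627933 on the minus strand of GRCm38. Its counts were 0, 0, 1 and 0 in GF-ND mice 9 to 12 and 4, 2, 8 and 12 in GF-HFD mice 13, 15, 16 and 19. Every GF-HFD retina was thus above every GF-ND retina, which among the 33 members held for Deup1 alone (2.29% of all genes tested had such a gap in this direction and 2.54% in the other). The totals of 26 and 1 counts give a ratio of 24.6 (exact 95% interval 4.04 to 1010, for counting error only). The fitted log2 fold change was 4.11 (SE 1.14), which depends on the prior count where a group is near 0, with an adjusted p of 0.649 in edgeR, and the two-sided exact permutation test of log2 CPM gave p = 0.0286, the smallest that 4 mice against 4 allow.

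Of the 33 tested, Deup1 was also the 1 gene that met the p and fold change thresholds named in the study's methods. They were read as a p under 0.01 without adjustment together with at least a doubling (log2 value over 1). In this direction 0.0855% of all genes met them. The opposite threshold, below -1, was met by 0 members and 0.372% of all genes. The study's methods also name a filter on genes under 10 CPM, which is not part of the thresholds as used here. Deup1 had a mean of 0.0792 CPM and was not tested with a minimum of 10 CPM in 4 libraries. The 2 GF-HFD libraries with the most Deup1 counts, mice 16 and 19, were also those with the most fibroblast markers (196 and 264 summed CPM, against 4.83 to 152 in the other 6) and the most ciliary body and iris markers (700 and 738 summed CPM, against 200 to 394). The part of these tissues in the Deup1 counts was not tested. Without GF-HFD mouse 16 or 19 the edgeR p of Deup1 was 0.0116 or 0.0175, above the study's threshold of 0.01, and it was 0.0121 to 0.0135 without GF-ND mouse 9, 10 or 12.

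Maats1, also known as Cfap91, a protein at the base of the radial spokes, lies on chromosome 16 from 38297754 to 38342143 on the minus strand. It had 0, 0, 0 and 2 counts in the GF-ND retinas and 3, 7, 4 and 2 in the GF-HFD retinas. The groups overlapped at the level of GF-ND mouse 12 and GF-HFD mouse 19, each with 2 counts. The ratio of the totals, 16 against 2, was 7.57 (exact 95% interval 1.78 to 67.9), the fitted log2 fold change 2.70 (SE 1.19), and the exact permutation p was 0.0571. Its unadjusted edgeR p of 0.0465 did not stay under 0.05 without any 1 of mice 9, 10, 11, 13, 15 or 16 (0.0600 to 0.114). Low counts came mostly as even numbers: of 62 member values from 1 to 12, 47 were even and 15 odd. Intervals that take each count as an independent read are therefore too narrow.

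The promoters of the 3 members with an unadjusted p under 0.05 are shown because RFX3, the product of the member with the highest level per length, is known to bind X-box motifs in front of ciliary genes. RefSeq promoters on GRCm38.p6, from 250 bases before to 50 after a start site, were matched for 30 of the 34 members. Capitals mark a match, on either strand, to a loose RFX palindrome, spelled GTNNCC then AT then GGNAAC, or to the RFX core site GTTGCC. In Deup1 a core site on the opposite strand lies inside the palindrome match.
Deup1 (chr9:15627797-15628096, minus strand): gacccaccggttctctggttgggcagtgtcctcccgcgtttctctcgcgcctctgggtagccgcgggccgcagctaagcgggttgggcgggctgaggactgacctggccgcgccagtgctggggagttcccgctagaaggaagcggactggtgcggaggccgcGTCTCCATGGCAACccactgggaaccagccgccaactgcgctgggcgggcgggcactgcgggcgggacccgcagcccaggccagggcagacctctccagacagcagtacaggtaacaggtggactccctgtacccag
Maats1 (chr16:38341811-38342110, minus strand): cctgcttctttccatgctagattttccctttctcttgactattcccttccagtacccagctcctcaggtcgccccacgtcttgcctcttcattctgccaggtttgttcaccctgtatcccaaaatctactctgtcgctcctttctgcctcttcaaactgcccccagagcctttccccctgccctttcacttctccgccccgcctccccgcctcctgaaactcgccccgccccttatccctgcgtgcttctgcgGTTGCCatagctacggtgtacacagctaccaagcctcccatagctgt
Ccdc39 (chr3:33844261-33844560, minus strand): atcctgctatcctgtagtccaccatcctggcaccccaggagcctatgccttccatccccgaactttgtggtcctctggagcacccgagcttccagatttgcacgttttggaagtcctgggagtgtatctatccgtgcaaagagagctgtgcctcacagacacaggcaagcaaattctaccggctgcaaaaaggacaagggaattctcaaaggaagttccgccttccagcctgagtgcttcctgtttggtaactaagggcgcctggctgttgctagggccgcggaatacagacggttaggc

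The core site GTTGCC was found, on either strand, in 15 of the 30 members with a promoter, against 14.1% of the 27025 genes in the table. The loose palindrome was found in Deup1 alone of the 30 (0.448% of all genes), and its form with any 2 bases in place of AT, which contains it, in Deup1 and Ccno (1.49%). The form GTTNCC, any 3 bases, then GNAAC matched Hydin and Spag16 (0.936%), and the degenerate X-box consensus with a spacer of 0 to 3 bases matched Ccno, Dnaic1, Dnaic2, Hydin, Spag16, Spef2 and Tekt2 (1.75%). The strict palindrome, GTTGCC then AT then GGCAAC, matched 0 of the 30 (0.0222% of all genes), and GTAAACA, a forkhead site that FOXJ1 can bind, matched Dnah17 alone (4.05%). These spellings overlap each other, and a match is a run of letters, not a bound site. A second Deup1 start site in the table had no match to any of them, and neither did the Ccdc39 promoter.

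Ccdc39, one of the pair of ruler proteins, was the 1 member with a lower level in GF-HFD retinas at an unadjusted p under 0.05 (edgeR adjusted p = 0.649). It lies on chromosome 3 from 33812362 to 33844310 on the minus strand. Its counts were 930, 1427, 706 and 1198 in GF-ND mice 9 to 12 and 799, 579, 837 and 803 in the GF-HFD mice. The level was 25.8 ± 7.90 CPM in GF-ND and 17.7 ± 2.66 CPM in GF-HFD retinas (both SD with n = 4), a fitted log2 fold change of -0.54 (SE 0.21). GF-ND mouse 11 was within the range of the GF-HFD mice, so the groups overlapped, and the exact permutation p was 0.114. Without GF-HFD mouse 15 or GF-ND mouse 10 or 12 the unadjusted edgeR p was no longer under 0.05 (0.0719 to 0.0992), and without GF-ND mouse 11 the log2 fold change was -0.69 (SE 0.15, edgeR adjusted p = 0.0514).

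Ccdc39 shares 1256 exonic bases, 16.87% of its exons, with Ttc14 on the opposite strand, and 24.8% of the 100-base windows of its longest transcript, the length of a read, are also in Ttc14 transcripts. Ttc14, a tetratricopeptide protein that is not a member and was singled out after its values were seen, had 7121 to 15259 counts. Whether the reads were counted by strand is not given in the sources used here. The Ccdc39 counts were 9.44, 9.35, 8.74 and 9.08% of the Ttc14 counts in GF-ND mice 9 to 12 and 9.56, 8.12, 9.03 and 11.3% in the GF-HFD mice. This ratio overlapped between the diets, and Ttc14 itself had a log2 fold change of -0.58 (SE 0.19). Ccdc40, which works with Ccdc39 in the ruler and overlaps no other gene's exons, had 29 to 71 counts in GF-ND and 30 to 46 in GF-HFD retinas (log2 fold change -0.40, SE 0.33), with groups that overlap.

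**Figure D3:**
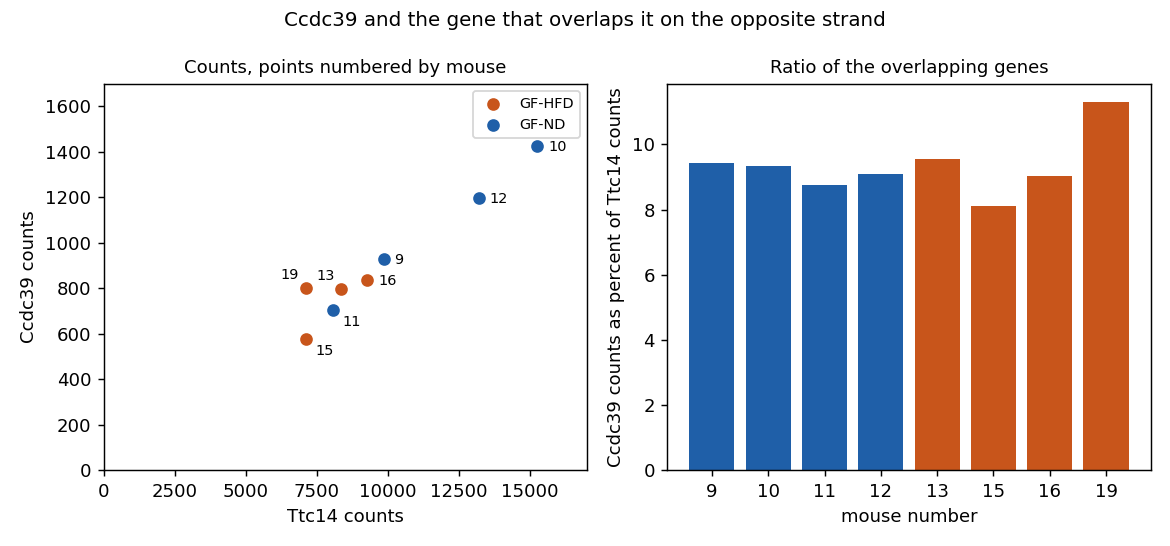
Left, Ccdc39 counts (y axis) against Ttc14 counts (x axis) in each library, numbered by mouse, and right, the Ccdc39 counts as a percentage of the Ttc14 counts in each mouse. The ratio stays between 8.12 and 11.3% while Ttc14 ranges from 7121 to 15259 counts.

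Of the 5 members that regulate motile ciliogenesis or multiply centrioles, none passed the diet test after adjustment. The 4 besides Deup1 also had an unadjusted edgeR p of 0.05 or more. Rfx3, a transcription factor of primary and motile cilia alike, had 2515, 2626, 2429 and 3050 counts in the GF-ND and 2662, 2570, 2720 and 2834 in the GF-HFD mice. It had the narrowest spread of the members, with a coefficient of variation of 7.27% over the 8 libraries, and a log2 fold change of -0.01 (SE 0.09). Foxj1, the master regulator of motile cilia, had 189 to 220 counts in GF-ND and 175 to 219 in GF-HFD mice, with overlapping groups (log2 fold change -0.17, SE 0.16).

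Mcidas (multicilin, which starts multiciliated cell fate) and Ccno (cyclin O, needed for centriole multiplication) are neighbours on chromosome 13, at 112993845 to 113000394 and 112987802 to 112990777. Mcidas had 2, 4, 0 and 0 counts in the GF-ND and 5, 0, 0 and 1 in the GF-HFD mice, a total of 6 in each group. Ccno was found in every library, with 4, 8, 12 and 16 counts against 6, 12, 14 and 10. Neither separated the diets (exact permutation p = 1 and 0.857). Of the 5 regulators and centriole genes, Deup1, which the study had picked on these libraries, was the 1 whose groups did not overlap. Such a gap in either direction was found in 4.83% of all genes tested.

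**Figure D4:**
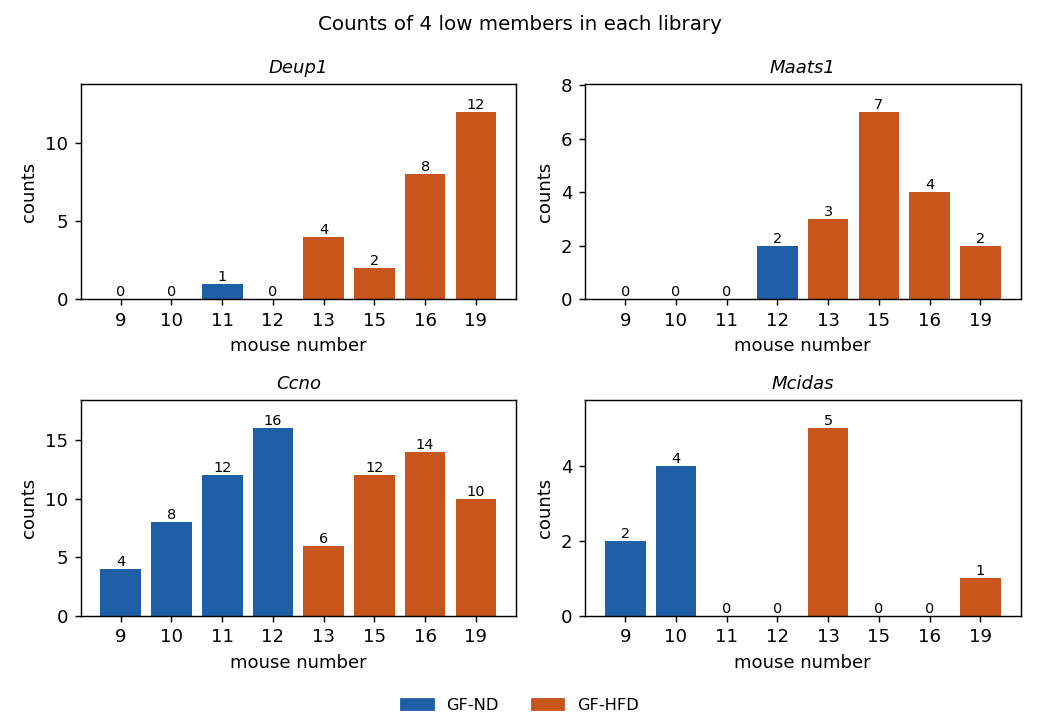
Counts (y axes, from 0) of Deup1, Maats1, Ccno and Mcidas in each library, by mouse number and diet. Deup1 has 0 to 1 counts in the GF-ND and 2 to 12 in the GF-HFD mice, while Ccno and Mcidas overlap.

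The inner arm heavy chains were led by Dnah7b, a motor of the inner row of arms. It lies on chromosome 1 from 46066315 to 46373546 on the plus strand. The retinas of GF-ND mice 9 to 12 held 68.7, 77.4, 44.0 and 83.6 CPM and those of GF-HFD mice 61.9, 52.5, 57.6 and 55.0 CPM. GF-ND mouse 11 was the lowest of all 8 and the other GF-ND mice the highest 3. With all mice the log2 fold change was -0.27 (SE 0.17, exact permutation p = 0.314), and without GF-ND mouse 11 it was -0.43 (SE 0.09) with an edgeR adjusted p of 0.0436. It was then the 1 member called of 33, in a comparison where 1.6% of all genes were called. Leaving out GF-HFD mouse 19 as well gave -0.41 (SE 0.10) and an adjusted p of 0.0832. With any other single mouse left out in place of mouse 11, the edgeR adjusted p of Dnah7b was 0.732 to 0.937. Mouse 11 was also the library with 6.01% of lens transcripts.

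Mouse Dnah7a, Dnah7b and Dnah7c are close copies. Of the 100-base windows of the longest transcripts, 20% of Dnah7a and 23.5% of Dnah7b also occur in other genes' transcripts, mainly in Dnah7b and Dnah7c respectively, so their counts are uncertain. Dnah7a had 4 to 36 counts, from 0.142 to 1.31% of the counts of the 3 copies. Dnah7c, not a member and named after its values were seen, had 229, 300, 213 and 314 counts in the GF-ND and 219, 142, 187 and 170 in the GF-HFD mice, with a log2 fold change of -0.59 (SE 0.20) and an edgeR adjusted p of 0.649.

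With all mice, none of the inner arm chains, Dnah7b included, passed the diet test. Dnah1 had 115 to 185 counts in GF-ND and 157 to 185 in GF-HFD mice (log2 fold change 0.17, SE 0.18). Dnah6 was at 1.63 ± 0.101 CPM in GF-ND and 1.36 ± 0.244 CPM in GF-HFD retinas (SD over 4 mice), with an exact permutation p of 0.0571. For Dnah2 the values were 39 to 89 and 42 to 58 counts, and Dnah12 had 5 to 20 and 6 to 15 counts.

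Of the outer arm heavy chains, Dnah9, a motor of airway and ependymal cilia, was the most abundant. It had 1246, 1339, 734 and 1603 counts in the GF-ND and 1460, 1427, 1318 and 1372 in the GF-HFD mice. GF-ND mouse 11 stood below all others and the rest overlapped (log2 fold change 0.14, SE 0.20, and -0.04 without that mouse). Dnah11, its close relative in the same arms, had 215, 215, 176 and 151 counts against 126, 140, 228 and 110 (log2 fold change -0.37, SE 0.24). Dnah17, the outer arm chain of sperm, had 132, 206, 85 and 161 counts against 128, 113, 114 and 110 (log2 fold change -0.37, SE 0.26), with a fold change of -0.55 (SE 0.19) on the log2 scale without mouse 11. Its GF-HFD values fell inside the GF-ND range. Dnah5, whose loss causes immotile cilia, had 8 to 22 and 4 to 20 counts.

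Dnah3, Dnah8, Dnah10 and Rsph9 had their highest levels in the 2 libraries with the most lens transcripts, GF-ND mouse 11 and GF-HFD mouse 19. This held for 4 of the 33 members tested (12.1%) and for 9.18% of all genes tested. Dnah3, an inner arm chain, had 27, 14, 45 and 26 counts in the GF-ND and 9, 17, 7 and 46 in the GF-HFD mice. Of its exons, 10.53% lie over Lyrm1 on the opposite strand, which had 243 to 300 counts and whose part in the Dnah3 counts was not tested. Dnah8, an outer arm chain of sperm, had 14, 17, 83 and 10 counts against 16, 25, 32 and 32. Its GF-HFD mice 16 and 19 had the same count and differed only by library scaling (0.732 and 0.757 CPM). The 83 counts of mouse 11 set the GF-ND mean, and the log2 fold change of Dnah8 turned from -0.27 (SE 0.63) to 0.89 (SE 0.41) without that mouse.

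Dnah10, an inner arm chain, had 50, 58, 121 and 42 counts against 31, 50, 59 and 84. Rsph9, a protein of the spoke head, had 54, 44, 107 and 33 counts against 43, 63, 67 and 96. In all 4 genes the diets overlapped, and none passed the test with all mice. At an unadjusted p under 0.05, Dnah8 alone of them passed without GF-ND mouse 11 (edgeR adjusted p = 0.217). Without GF-HFD mouse 19, Dnah3 alone of them passed, with a log2 fold change of -1.37 in place of -0.53 (edgeR adjusted p = 0.801). The part of lens tissue in these levels was not tested. In mouse 11 the rod markers were also lowest, at 35670 summed CPM against 51410 to 78590 in the other 7. Of the 33 members, 9 had their lowest level in mouse 11, among them Dnah7b, Dnah9, Dnah17 and Rfx3, and 6 their highest, namely Dnah1, Dnah6, Dnah8, Dnah10, Ccdc40 and Rsph9.

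**Figure D5:**
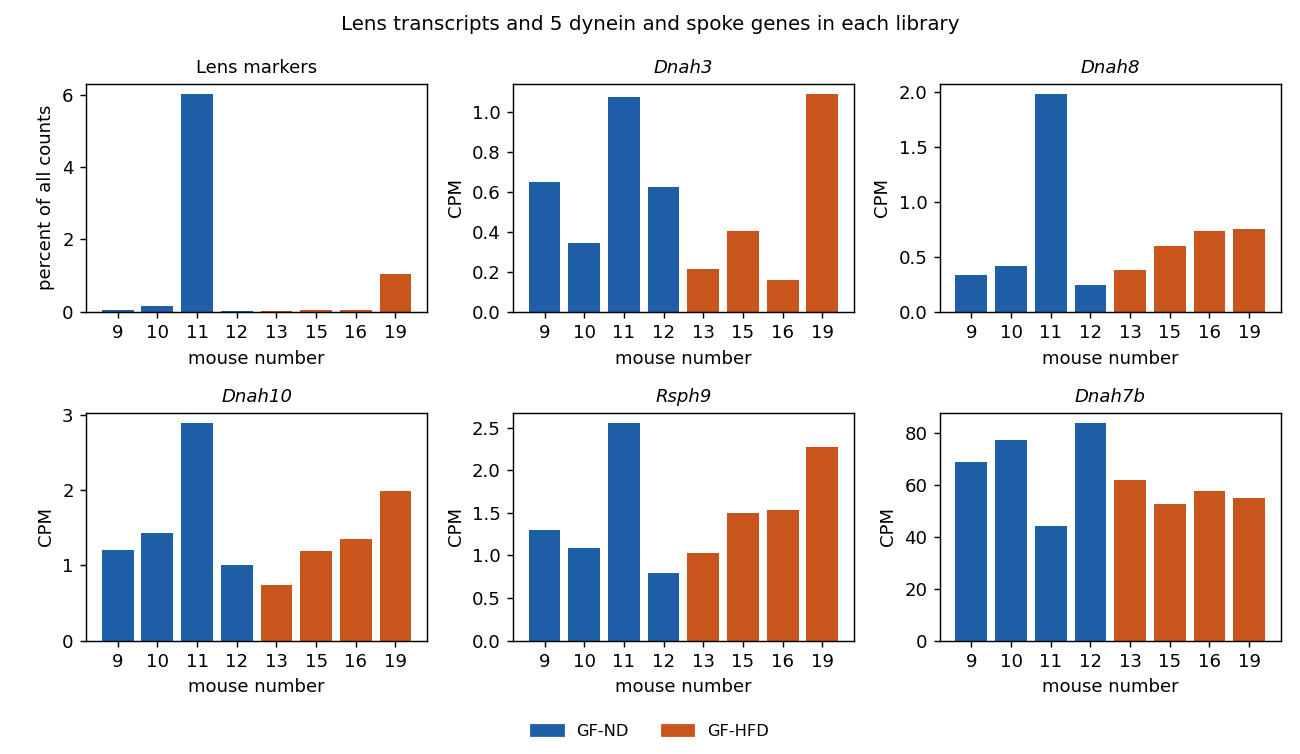
Lens markers as a percentage of all counts, and CPM of Dnah3, Dnah8, Dnah10, Rsph9 and Dnah7b, in each library by mouse number and diet (y axes from 0). Dnah3, Dnah8, Dnah10 and Rsph9 are highest in mice 11 and 19, with 6.01 and 1.05% of lens transcripts, while Dnah7b is lowest in mouse 11. Dnah8 has nearly the same level in mouse 16 (0.732 CPM) as in mouse 19 (0.757 CPM).

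Neither dynein intermediate chain passed the diet test. Dnaic2 had 130 to 181 counts in GF-ND and 172 to 203 in GF-HFD mice (log2 fold change 0.16, SE 0.17) and Dnaic1 82 to 114 against 57 to 105 (-0.20, SE 0.24). Both carry the outer arm heavy chains. The inner arm light chain Dnali1 was lower in abundance, at 10 to 24 against 6 to 14 counts (log2 fold change -0.77, SE 0.45, exact permutation p = 0.143).

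The remaining spoke proteins were close to the limit of detection. Rsph1 had 4, 8, 12 and 4 counts in the GF-ND and 14, 16, 9 and 8 in the GF-HFD mice (log2 fold change 0.71, SE 0.52), with overlapping groups. Rsph4a was counted in GF-ND mouse 12 (10 counts) and in GF-HFD mice 15 and 19 (2 counts each) and had 0 counts in the other 5 libraries.

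Central pair genes differed widely in level. Hydin, a very large projection protein, had 63 to 95 counts in GF-ND and 76 to 105 in GF-HFD mice (log2 fold change 0.21, SE 0.22), and Spef2 80 to 117 against 86 to 96 (-0.17, SE 0.19). Spag6 had 27, 45, 30 and 30 counts against 18, 18, 46 and 15. GF-HFD mouse 16 lay within the GF-ND range in CPM and the other GF-HFD mice were the lowest 3, so that the Spag6 log2 fold change was -0.49 (SE 0.40) with that mouse and -0.98 without it (edgeR adjusted p = 0.843). Spag16 had 0 to 8 counts in a library. Spag17 had 0, 2, 0 and 5 counts in the GF-ND mice and 0 in all 4 GF-HFD mice. These 7 counts from 2 mice allow no test, and no fold is given. Of its exons, 15.74% lie over Wdr3 and Spag17os on the other strand. The tektins, filaments of the doublet wall, had 33 to 51 against 36 to 64 counts (Tekt1) and 7 to 18 against 6 to 22 counts (Tekt2).

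The other genes of the pathway were called about as often as all genes. On 7 lists with 104 further motile cilium genes, 102 were found and 98 tested. Of these, 4 had a higher and 4 a lower level on the high-fat diet at an unadjusted p under 0.05 (4.08% each, against 2.85 and 4.53% of all genes, or 8.16% against 7.38% in either direction), 0 passed after adjustment in edgeR, DESeq2 or limma-voom, and 0 met the study's thresholds. The median log2 fold change was -0.02. Among those higher were the assembly factor Cfap298 (log2 fold change 0.41, SE 0.17) and the dynein light chains Dnal4 (0.26, SE 0.10) and Dynlrb2 (1.26, SE 0.51). Those lower were the assembly factor Spag1 (17.4 ± 5.67 CPM against 11.9 ± 0.422 CPM, log2 fold change -0.55, SE 0.22), the transcription factor Myb (-0.41, SE 0.17), the centriole protein Cep63 (-0.33, SE 0.13) and Cfap100 (-0.66, SE 0.26). Myb and Cfap100 are known to act in multiciliated cells and at the inner dynein arms respectively. All error values of CPM are SD with n = 4.

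Calls by list are at an unadjusted p under 0.05, where 2.85% of all genes were higher and 4.53% lower. By list, 1 of 10 dynein arm assembly factors was higher and 1 lower, with Dnaaf5 at 0.10 (SE 0.11) beside Spag1 among the 2 most abundant. Of 12 docking and nexin-dynein regulatory genes 0 passed, with Gas8 at -0.20 (SE 0.13) and Iqcg at 0.25 (SE 0.16) the most abundant. Of 7 other dynein chains 2 were higher, with Dnal1 at 0.14 (SE 0.07) and Wdr78 at -0.13 (SE 0.23) the most abundant. Of 19 further spoke and central pair genes 0 passed, with Cfap20 at -0.01 (SE 0.11) and Cfap61 at 0.14 (SE 0.18). Among the doublet proteins Mns1 was at 0.10 (SE 0.14). Of 14 further multiciliogenesis genes Myb and Cep63 were lower, with Rfx1 at -0.32 (SE 0.22). Of 20 other cilia and flagella proteins Cfap100 was lower, with Cfap69 at -0.23 (SE 0.20) and Wdr66 at 0.07 (SE 0.19). All of these are fitted log2 fold changes of GF-HFD over GF-ND.

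Without GF-ND mouse 11, 21 of 96 of these genes were lower at an unadjusted p under 0.05 (21.9%, against 11% of all genes) and 6 higher (6.25%, against 12.1%). Spag1 (-0.75, SE 0.11), Cep63 (-0.43, SE 0.09) and Dnhd1, a dynein heavy chain domain protein (-0.65, SE 0.13), named after their values were seen, then passed with edgeR adjusted p of 0.0232, 0.0424 and 0.0437. They are 3.12% of the 96, against 1.6% of all genes that passed after adjustment in that fit. The members themselves stood at 3 lower (Dnah7b, Dnah17 and Ccdc39, 9.09%) and 2 higher (Dnah8 and Deup1, 6.06%). Deup1 alone of the 33 then met the study's thresholds, which 0.319% of all genes met upward and 1.02% downward.

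For the non-motile cilium of the photoreceptors, no gene of the list passed the diet test. Of 18 genes of the connecting cilium and its transport, 18 had a mean above 1 CPM. At an unadjusted p under 0.05, 0 of the 18 passed, against 7.38% of all genes (median log2 fold change -0.05). With 18 genes, 0 calls is close to that share. They summed to 4170 CPM in GF-ND mouse 11 and to 6092 to 7694 CPM in the other 7. The 34 motile cilium genes summed to 178 CPM in mouse 11 and 199 to 260 CPM in the others. Among the 12 multiciliated markers, 6 were tested. Of these, 1110017D15Rik alone met the study's p and fold change thresholds, downward, as did 0.372% of all genes. It had 18, 17, 14 and 16 counts in the GF-ND and 4, 5, 2 and 4 in the GF-HFD mice, a log2 fold change of -2.11 (SE 0.45, edgeR adjusted p = 0.649). Its groups did not overlap, and neither did those of Odf3b, which was higher in GF-HFD retinas with 18, 18, 18 and 23 counts against 9, 6, 16 and 13 (log2 fold change 0.77, SE 0.39, edgeR adjusted p = 0.655). Such a gap was found in 2.54% of all genes tested in the first direction and 2.29% in the second. The groups of Fam183b (4 to 12 against 8 to 25 counts, log2 fold change 1.0, SE 0.50) and Pifo (22 to 50 against 31 to 43 counts) overlapped.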

How the data were processed

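Retinal RNA of 8 germ-free mice was sequenced as read pairs of 100 bases. Alignment to GRCm38 (mm10) used STAR 2.4.2 and counting used featureCounts (Subread 1.4.6-p1), as the submitters' processing notes list them. The authors deposited the resulting counts, whole numbers for each gene symbol, unscaled and unfiltered, in a table for each mouse. Whether a pair counted as 1 or 2 is not given in the sources used here. Among values of 1 to 12, the even:odd ratio ran from 1.91 to 2.36 over the libraries. The authors' annotation release was later than GENCODE vM21, which gave positions, lengths and overlaps here.

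Genes with a sum of 10 or more counts were scaled by TMM and compared with edgeR 4.0.16 (R 4.3.3, quasi-likelihood test, Benjamini-Hochberg adjustment over all genes tested). For log2 CPM the prior count was 2. Permutation tests of single genes were exact and two-sided, over 70 arrangements. Alternatives were RLE factors, library totals, no filter, filterByExpr, a minimum of 10 CPM in 4 libraries, DESeq2 1.42.0, limma-voom (limma 3.58.1), robust dispersion, and each mouse left out. Cages and litters are not given, so p-values cover the spread between these mice.

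The members and gene lists were chosen with earlier results of these data known. All members are named. From each further list the text names the 2 most abundant genes and those with p under 0.05. A result that this rule would name is not reported here. RPKM used the union of annotated exons, which for Dnah7b (19980 bases) is longer than its longest transcript (12314 bases).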

Additional observations from a re-analysis of the deposited data

Results flagged for a closer look

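Each value here is the CPM of a member that lay far from the other 3 mice of its diet, with a gap to the nearest of them that took up more of the group's range than Dixon's 95% limit. Of 66 groups of 4 mice checked, 7 showed such a gap. For normally distributed values about 1 in 20 would do so by chance (3.3). A group with 3 mice at 0 shows the gap with any count in the other mouse. The 7 can therefore not be set against 3.3. Dnah8 was at 1.98 CPM in GF-ND mouse 11 and 0.239 to 0.419 CPM in the other GF-ND mice. Mouse 11 also had the highest share of lens transcripts, whose part was not tested. Ccdc39 was at 13.7 CPM in GF-HFD mouse 15 against 19 to 19.2 CPM in the other GF-HFD mice. Spag6 was high in both diets in 1 mouse, at 1.11 CPM in GF-ND mouse 10 (others 0.651 to 0.718) and 1.05 CPM in GF-HFD mouse 16 (others 0.355 to 0.430). The other 3 rest on few counts in 1 library of a group otherwise at 0. Rsph4a was at 0.239 CPM in GF-ND mouse 12 (10 counts), Deup1 at 0.0238 CPM in GF-ND mouse 11 (1 count) and Maats1 at 0.0478 CPM in GF-ND mouse 12 (2 counts).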

How the results depend on the processing

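Over the alternatives, member fold changes kept their direction and their side of the 0.05 threshold in 495 cases, reversed in 34, passed it newly in 10 and lost it in 15, and the cause was not tested. Against 2 higher members, 1 was called with DESeq2, library totals, no filter or robust dispersion, 0 with filterByExpr (26 members tested) or 10 CPM in 4 libraries (4 tested), and 1 to 2 with a mouse left out. Against 1 lower member, 0 to 3 were called with a mouse left out. The count at the study's thresholds, 1, was 0 with filterByExpr and with 10 CPM, where Deup1 was not tested, and 0 to 1 with a mouse left out. After adjustment 0 to 1 members were called with a mouse left out. Leaving out mice 11 and 19, chosen after seeing the data for their lens transcripts, gave 1 higher, 3 lower and 0 at the thresholds, and leaving out 16 as well gave 0, 4 and 0. Without 11, 16 and 19, Deup1 had under 10 counts and was not among the 32 members tested. That fit therefore cannot show whether Deup1 differed. Of the other motile cilium genes, 4 higher became 2 with 10 CPM and 2 to 6 with a mouse left out. The 4 lower became 17 without 11 and 19, 15 without 16 too, and 1 to 21 with a mouse left out. None was called after adjustment, against 1 (Spag1) without 11 and 19 and 0 to 3 with a mouse left out, and 0 at the thresholds became 1 (Ribc2) without 11 and 19.

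Log2 fold changes that reversed were Dnah8 at 0.565 without 11, 16 and 19, 0.778 without 11 and 19 and 0.213 in limma-voom, Dnah9 at -0.031 and Tekt2 at 0.046 without 11 and 19, Rsph4a at 0.019 in limma-voom, Mcidas at 0.300 and Ccno at -0.065 without 11, 16 and 19, and Ccno at -0.008 with library totals. With a mouse left out they ran from -0.818 to 0.106 (Dnah7a), -0.563 to 0.893 (Dnah8), -0.036 to 0.291 (Dnah9), -0.576 to 0.123 (Dnah10), -0.054 to 0.056 (Rfx3), -0.082 to 0.582 (Rsph9), -0.423 to 0.359 (Mcidas), -0.226 to 0.346 (Ccno), -0.101 to 0.185 (Tekt1) and -0.480 to 0.108 (Tekt2). No paired analysis was possible because the diet groups share no mouse numbers.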
